A study of Mus musculus with 4 samples.

Results

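Astrocytes were studied here as a small class of cells that came through a sort for tdTomato-positive cells of mouse cortex and hippocampus. They were picked by their own counts of unique molecular identifiers (UMIs, each 1 captured RNA molecule), so the genes of the rule describe the cells and support nothing. A cell counted as an astrocyte when it had at least 2 UMIs of Aqp4 plus Gja1 and at least 3 of Slc1a3 plus Slc1a2. It also had to have 0 UMIs of Mog, 0 of Pdgfra and at most 1 of Gad1 plus Gad2, which mark oligodendrocytes, oligodendrocyte precursors and GABA neurons. Cells were kept first if they had 200 to 6000 genes and less than 30% mitochondrial UMIs. By this rule 358 of 26201 kept cells were astrocytes, or 1.37%.

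The study sorted cells that carry the Ai14 TdTomato reporter, switched on by Nkx2.1-Cre, a Cre recombinase line active in the medial ganglionic eminence and other Nkx2-1-expressing progenitors. It compared mice whose Grin1 gene, which encodes the obligatory subunit of the NMDA receptor, was floxed on both alleles (Grin1 fl/fl, null) with wild-type littermates (Grin1 wt/wt, WT). Single cells of frontal cortex and of hippocampus were profiled on the 10x Genomics droplet platform, in order to learn what the loss of the receptor does to interneurons. Mice were juvenile, at postnatal days 18 to 20, of both sexes. The study gives the animals used per genotype across the replicates, while the number behind each library is not stated. Buffers of all groups held the sodium channel blocker TTX, the NMDA receptor blocker APV and the transcription blocker Actinomycin-D. All animals carried Cre and the reporter, so Cre activity is shared by WT and null. There were 3 WT libraries and 2 null libraries for each region. Replicate 1 used the version 2 chemistry, and replicates 2 and 3 used version 3.

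Astrocytes are the glial cells that surround synapses and blood vessels. They take up glutamate and GABA through sodium-coupled transporters, buffer potassium, move water through aquaporin channels at their endfeet, and pass ions and metabolites among themselves through gap junctions. They also supply lipid-laden apolipoproteins and lactate to neurons and release proteins that help synapses form. In the forebrain they arise from radial glia of several origins, and those at the brain surface and in white matter hold more glial fibrillary acidic protein than those of the grey matter.

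The astrocytes held 1096601 UMIs in all, with a median of 2696 UMIs and 1394 genes per cell. Their median count was 9 UMIs for Aqp4 plus Gja1 and 44 for Slc1a3 plus Slc1a2. Depth differed between libraries. Cortex WT replicates 1, 2 and 3 gave 14, 53 and 38 astrocytes with 45854, 171492 and 133567 UMIs in sum. Cortex null replicate 2 gave 30 astrocytes with 94851 UMIs, and cortex null replicate 1 gave 1 astrocyte. Hippocampus WT replicates 1, 2 and 3 gave 16, 22 and 115 astrocytes with 24169, 20131 and 305916 UMIs. Hippocampus null replicates 1 and 2 gave 13 and 56 astrocytes with 69947 and 225320 UMIs. Median depth per astrocyte ran from 895.5 UMIs in hippocampus WT replicate 2 to 6034 in hippocampus null replicate 1, leaving out the single cell of cortex null replicate 1. Total UMIs per library, over all cells, ran from 1488601 in cortex null replicate 1 to 47338167 in hippocampus null replicate 2.

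Some libraries stood apart. Cortex null replicate 1 had 1 astrocyte among 177 kept cells and entered no gene comparison, for which a library needed at least 10 astrocytes. This left 9 libraries, with 1 null library in cortex. Hippocampus WT replicate 2 had the shallowest astrocytes, and hippocampus WT replicate 3 alone held 115 of the 358. Among the kept cells 88 barcodes occurred in more than 1 library, and 0 astrocytes were among them.

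Xist, the long non-coding RNA of the silenced X chromosome, was uneven between libraries. Levels are given as CPM, counts-per-million, which are the UMIs of a gene scaled to all UMIs of the astrocytes of a library. Xist measured 720, 0 and 329 CPM in cortex WT replicates 1, 2 and 3 and 0 in the cortex null library. In hippocampus it measured 455, 0 and 758 CPM in the WT replicates and 0 in both null libraries. Ddx3y, on the Y chromosome, was found in all 9 libraries at 21.8 to 117 CPM. Xist was therefore at 0 in the astrocytes of the 3 null libraries compared and of WT replicate 2. The part of sex in the genotype comparisons was not tested.

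The labelled genotype was visible in the neurons of the same libraries. Grin1 in Gad-positive cells (at least 3 UMIs of Gad1 plus Gad2) measured 144, 239 and 211 CPM in the cortex WT libraries and 121, 162 and 141 CPM in the hippocampus WT libraries. In the null libraries it measured 38 and 26.8 CPM in cortex and 27.2 and 19.2 CPM in hippocampus. Every null library was below every WT library. Astrocytes held 6 UMIs of Grin1 in all, 5.47 CPM, so its loss could not be read in them at this depth.

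The label of astrocyte was checked against 14 markers that the rule did not use. Aldoc, the aldolase of astrocytes, had a UMI in 96.9% of them at a median depth of 2696 UMIs, against 13.6% of Gad-positive cells at a median of 8259.5 UMIs. Its level over the 9 libraries was 1890 CPM at the lowest, 5140 at the median and 10600 at the highest. Aldh1l1, a folate enzyme used as a general astrocyte marker, ranged from 129 to 447 CPM with a median of 297, and had a UMI in 52.5% of astrocytes against 0.783% of Gad-positive cells. Sox9, a glial transcription factor, was found in 57.8% of astrocytes at 174 to 455 CPM. The neurotensin receptor gene Ntsr2 ranged from 745 to 3230 CPM, and Mlc1, a membrane protein of endfeet, from 455 to 1100 CPM. The acyl-CoA synthetase Acsbg1, the adhesion protein Hepacam and the receptor Fgfr3 had medians of 506, 455 and 393 CPM. Cldn10, a claudin, was at 0 in hippocampus WT replicate 2 and at 397 to 1290 CPM in the other 8 libraries. S100b was less selective, with 494 CPM in astrocytes and 395 CPM in Mog-positive cells. The other markers of the check, Atp1b2, Glul, Slc4a4 and Gjb6, were found in all 9 libraries.

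Cells near the limits of the rule show how sharp it was. The 26 cells with exactly 2 UMIs of Aqp4 plus Gja1 had 2980 CPM of Aldoc and 28310 CPM of Apoe. The 26 cells with 1 UMI that met the rest of the rule had 3584 and 36180 CPM. The 234 cells with 0 UMIs that met the rest had 43.4 CPM of Aldoc and 1827 CPM of the neuronal gene Snap25. Cells just outside the limit at 1 UMI thus resembled those inside it in these genes, and cells at 0 did not. The 4 astrocytes with 3 UMIs of Slc1a3 plus Slc1a2 had 14140 CPM of Apoe and 785.7 CPM of Aldoc. The 3 cells with 2 UMIs had 6956 and 0 CPM, and all astrocytes pooled had 5150 CPM of Aldoc. The 41 astrocytes with 1 UMI of Gad1 plus Gad2 had 4866 CPM of Aldoc, against 1286 in the 13 cells with more. The 34 cells left out for Mog alone carried 3201 CPM of Aldoc, and 1 cell was left out for Pdgfra alone.

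Astrocytes made up a small and uneven share of the libraries, given here as a percentage of kept cells with a 95% Wilson interval, which covers counting error only. In cortex WT the shares were 1.10% (0.654 to 1.83), 1.38% (1.06 to 1.81) and 0.967% (0.705 to 1.32). Cortex null gave 0.565% (0.0998 to 3.13) and 1.16% (0.816 to 1.66). Hippocampus WT gave 0.721% (0.444 to 1.17), 0.478% (0.316 to 0.723) and 3.67% (3.07 to 4.39), and hippocampus null gave 3.24% (1.90 to 5.47) and 1.38% (1.07 to 1.79). The hippocampal libraries thus spread wider than the cortical ones, and the groups overlapped in each of the 3 comparisons tested. Cells with at least 1000 UMIs were also thinned to 1000 each, and shallower cells were left out. This gave 92 of 2877 cells, or 3.20%, in hippocampus WT replicate 3 and 7 of 3483, or 0.201%, in replicate 2. The order of these libraries thus held among the deeper cells.

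The mean share in WT was 1.15% ± 0.213 (SD, n = 3) in cortex and 1.62% ± 1.78 (SD, n = 3) in hippocampus, a difference of 0.474 percentage points with p = 1 in a two-sided exact permutation test over libraries. In cortex the null mean was 0.864% ± 0.423 (SD, n = 2), a difference from WT of -0.285 points (exact permutation p = 0.6, adjusted p = 0.9). In hippocampus the null mean was 2.31% ± 1.32 (SD, n = 2), a difference of 0.689 points (exact permutation p = 0.6, adjusted p = 0.9). The smallest p that this test allows is 0.1 for 3 libraries against 3 and 0.2 for 3 against 2. The test could therefore not have reached a p below 0.05 in any of the comparisons, and the shares of the groups overlapped. Single libraries decided the direction. Without hippocampus WT replicate 3 the regional difference was -0.549 points, without cortex null replicate 1 the cortical one was 0.0147, and without hippocampus null replicate 1 the hippocampal one was -0.242.

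The most abundant transcripts of the astrocytes were Apoe at 39480 CPM, Malat1 at 35910 and Cst3 at 27710. Levels are compared between genes as UMIs, which count molecules from their 3' ends and do not grow with gene length. Apoe, the main lipid carrier of the brain, lies on chr7:19696109-19699188 (minus strand, GRCm38) and had a UMI in all 358 cells. Across libraries it measured 35700, 27100 and 43000 CPM in cortex WT, 52400 in cortex null, 36700, 33800 and 37400 in hippocampus WT, and 40300 and 46400 in hippocampus null. The highest value, in the single cortex null library, was less than 2 times the lowest. Slc1a2, a gene of the rule, was next in the ranking of all genes at 15420 CPM, before mt-Rnr2 at 13000 and Cpe at 11750. The metallothioneins Mt1 and Mt3, small metal-binding proteins, measured 9479 and 7337 CPM.

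The genes with the largest ratio to all other kept cells, as a mean over the 9 libraries, were ranked among 3260 genes with at least 50 CPM in astrocytes. Genes used by the rule are in that ranking by construction. Myoc, which encodes the secreted protein myocilin, came first at 710-fold, with 2.15 CPM in the other cells. Aqp4 came next at 604-fold, Gfap at 602-fold with 6.07 CPM in the other cells, and Gja1 at 518-fold. Ntsr2 stood at 480-fold, Apoe at 341-fold, Mlc1 at 313-fold, Acsbg1 at 254-fold, the sphingosine receptor gene S1pr1 at 248.5-fold and Slc1a2 at 244-fold. All of these were higher in the astrocytes of 9 of 9 libraries. This is a description of cells picked by such genes, and astrocytes were not tested against other cells.

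The 10 glutamate genes summed to 22980 CPM in astrocytes and 526 CPM in the other kept cells, a sum that holds genes of the rule, with 9 detected and the glutamine carrier Slc38a5 at 0 UMIs. Slc1a2, the glutamate transporter GLT-1, ranged from 9740 to 21400 CPM with a median of 12400, and Slc1a3, the transporter GLAST, from 1690 to 3430 CPM with a median of 2480. Both are genes of the rule and make up most of the sum. Glul, the glutamine synthetase that closes the glutamate cycle, had a median of 2900 CPM and spread from 993 to 6060. The glutamate dehydrogenase Glud1 was steadier, at 546 to 1210 CPM. Slc7a11, the cystine-glutamate exchanger, ranged from 143 to 579 CPM, and Slc7a10, a carrier of small neutral amino acids, from 44.9 to 414 CPM. Among the metabotropic receptors Grm3 had a median of 172 CPM, while Grm5 had 9 UMIs in all.

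The GABA programme was smaller, with 1499 CPM over 6 genes in astrocytes and 884 CPM in the other cells, which include many GABA neurons. Slc6a11, the astrocytic GABA transporter, ranged from 240 to 703 CPM with a median of 386. Abat, the transaminase that breaks GABA down, had a median of 386 CPM. Slc6a13, known from the meninges and liver, had 0 UMIs in 1096601, which allows up to 3 UMIs.

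Ion and water transport genes were all detected, 11 of 11, with a sum of 11860 CPM against 546 CPM in the other cells. Atp1b2, a beta subunit of the sodium pump, ranged from 993 to 2110 CPM. The bicarbonate carrier Slc4a4 ranged from 720 to 1940 CPM. Kcnj10, the inward rectifier Kir4.1 that clears potassium, had a median of 284 CPM, and its partner Kcnj16 a median of 52.5 CPM. Aqp4, the water channel of the endfeet and a gene of the rule, ranged from 1320 to 3230 CPM. Of the connexins, Gja1 (connexin 43, in the rule) had a median of 1480 CPM, Gjb6 (connexin 30) 324 CPM and Gjb2 (connexin 26) 29.2 CPM. Gjb6 ranged from 99.3 CPM in hippocampus WT replicate 2 to 851 CPM in cortex WT replicate 1.

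Lipid genes made up the largest sum of any list, with 76710 CPM over 15 genes against 3662 CPM in the other cells. Beside Apoe they included Cpe, a carboxypeptidase of secretory granules, at 6160 to 15900 CPM and the acyl-CoA binding protein gene Dbi at 4970 to 12100 CPM. Clu, which encodes the apolipoprotein clusterin, ranged from 4950 to 11100 CPM. Fatty acid binding proteins of the brain were present as Fabp5, with a median of 1890 CPM, and Fabp7, with a median of 1830 CPM. The desaturase Scd2 and the sterol enzymes Hmgcs1 and Sqle had medians of 1760, 496 and 153 CPM. The energy list of 13 genes summed to 8860 CPM in astrocytes and 1725 CPM in the other cells. After Aldoc its most abundant genes were the lactate dehydrogenase subunit Ldhb at 894 to 2230 CPM and the pyruvate carrier Mpc1 at 248 to 1470 CPM. Ldha, the subunit better known in astrocytes, had a median of 202 CPM, and the brain glycogen phosphorylase Pygb one of 404 CPM. Gys1, the glycogen synthase, had 27 UMIs.

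Receptor genes were led by Ntsr2, and their 15 genes summed to 4220 CPM, against 1411 CPM in the other cells. Ednrb, the endothelin B receptor, ranged from 371 to 1240 CPM, and S1pr1 from 355 to 1030 CPM. The GABA-B receptor subunit Gabbr1 had a median of 443 CPM and its partner Gabbr2 one of 44.9 CPM. The AMPA receptor subunit gene Gria2 ranged from 99.3 to 569 CPM. Adrenergic receptor genes were sparse, with 7 UMIs of Adra1a, 8 of Adra1b, 43 of Adra2a and 15 of Adrb1, and the purine receptor gene P2ry1 had 4.

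Of the 6 NMDA receptor subunit genes, the obligatory one was close to absent and a pair of accessory ones was not. Grin1 (chr2:25291181-25319187, minus strand) had a UMI in 1.68% of astrocytes, against 51.6% of Gad-positive cells at their greater depth. Grin2c (chr11:115249169-115267243, minus strand) had one in 34.6% of astrocytes, 124 cells, at 209 CPM, and stood at 0.867 CPM in Gad-positive cells. Grin3a ranged from 41.4 to 199 CPM with a median of 163. Pooled it stood at 144 CPM, against 140 CPM in the other kept cells, and was higher in astrocytes in 5 of 9 libraries. Grin2b had 17 UMIs, Grin2d 1 and Grin2a 0, where 0 allows up to 3. The astrocytes therefore held Grin2c with few UMIs of the subunit that the null allele removes. The part of free RNA in the Grin3a counts was not tested.

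Secreted and surface factors that act on synapses and matrix summed to 12930 CPM over 17 genes, against 1588 CPM in the other cells. Sparcl1 (hevin), which promotes excitatory synapses, ranged from 4710 to 8590 CPM. The proteoglycans Bcan and Ncan had medians of 1500 and 695 CPM and the growth factor Ptn one of 1430 CPM. Glypicans differed from one another, with a median of 218 CPM for Gpc5, 59.9 CPM for Gpc6 and 7.49 CPM for Gpc4. Of the thrombospondins, Thbs1 had 3 UMIs, Thbs2 4 and Thbs4 86. The phagocytic receptor genes Mertk and Megf10 had medians of 128 and 37.4 CPM, and the cytokine Il33 had 20 UMIs in 16 cells.

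The regulators of lineage and region were dominated by inhibitors of DNA binding. Id3 had 1586 CPM and Id2 1003 CPM in the pooled astrocytes, within a sum of 5954 CPM for the 19 genes of the list. Zbtb20, a transcriptional repressor active in the hippocampal and glial lineages, ranged from 443 to 1440 CPM. The glial factors Nfia, Nfib and Nfix had medians of 309, 262 and 286 CPM and the stem cell factor Sox2 one of 290 CPM. Lhx2, a cortical and hippocampal selector, was found in 8 of 9 libraries at up to 307 CPM. Emx2 and Pax6, factors of dorsal forebrain progenitors, had 37 and 81 UMIs. Nkx6-2, a factor of ventral progenitors, had 2 UMIs, and stood at 214 CPM in the other kept cells. Nkx2-1 and Olig2 of the same list had 20 UMIs each. UMIs of Emx2 and Pax6 were thus found in cells sorted through an Nkx2.1-Cre line, and the origin of the cells was not tested.

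UMIs of the driver of the line were found in a few hippocampal astrocytes. Nkx2-1 (chr12:56531958-56536908, minus strand) had 20 UMIs in 14 of 358 cells. These were 5 of 115 astrocytes in hippocampus WT replicate 3, 1 of 13 in hippocampus null replicate 1 and 8 of 56 in hippocampus null replicate 2. Pooled over all libraries it stood at 18.2 CPM in astrocytes, 25 CPM in Gad-positive cells and 39.4 CPM in Pdgfra-positive cells. The cortical libraries had 0 UMIs in their astrocytes, as had hippocampus WT replicates 1 and 2. Lhx6, the next factor of the interneuron lineage, had 1 UMI in the astrocytes. The part of free RNA in the Nkx2-1 counts was not tested.

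The reporter was high in these cells. Tomato measured 2492 CPM in astrocytes, 1117 in Pdgfra-positive cells, 841 in Gad-positive cells, 281 in Mog-positive cells (at least 2 UMIs of Mog plus Mag) and 251 in C1q-positive cells, which carry at least 3 UMIs of the C1q genes of microglia. At 1000 UMIs per cell, 66.8% of astrocytes and 53.5% of Gad-positive cells held a Tomato UMI. In astrocytes it measured 1160, 2590 and 2100 CPM in cortex WT and 4480 in cortex null. In hippocampus it measured 1820, 2430 and 925 CPM in WT and 1920 and 4520 CPM in null. Hippocampus WT replicate 3, which held the most astrocytes, had the lowest level. It also had the lowest share of astrocytes with a Tomato UMI after thinning, 41.0%, against 50% to 92.9% in the other 8 libraries. C1q-positive cells, which do not descend from the Nkx2-1 lineage, had Tomato UMIs in 32.4% of thinned cells in that library, and Gad-positive cells in 56.0%. The part of free RNA in these shares was not tested. EGFP, also a feature of the files, had 0 UMIs in the 358 astrocytes.

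**Figure D1:**
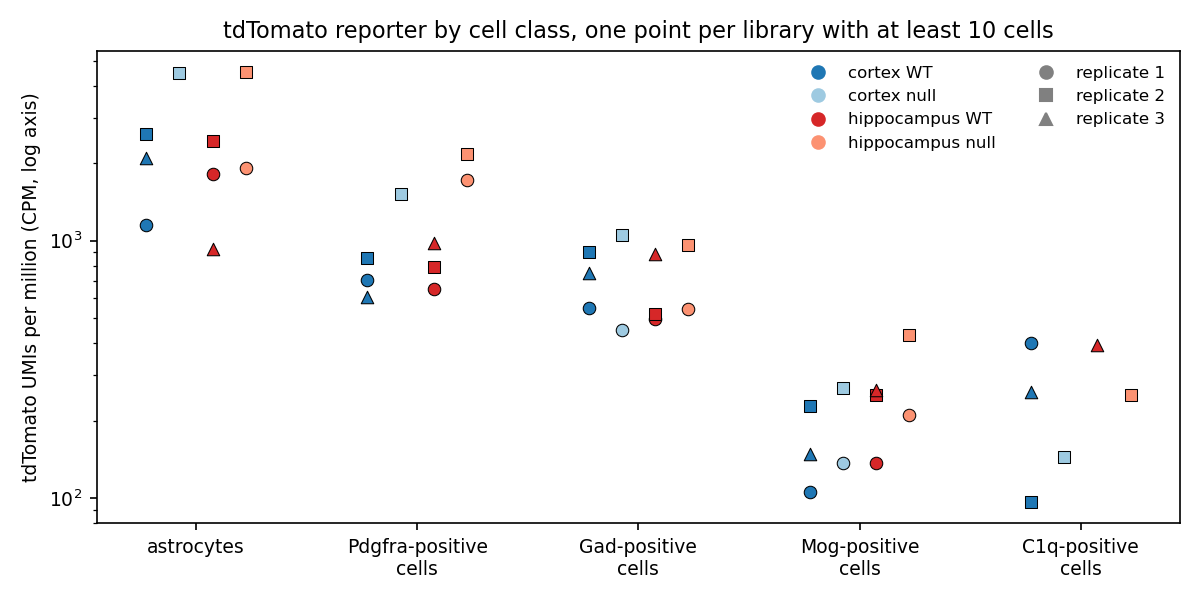
Tomato reporter level (CPM, log axis) in each library, by cell class; each point is 1 library. Astrocytes lie between 925 and 4520 CPM, and hippocampus WT replicate 3 is the lowest of them.

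How astrocytes varied from cell to cell was measured after thinning 319 cells to 1000 UMIs each. Among 732 genes with at least 0.2 UMIs per cell, the median ratio of variance to mean was 1.11, near the value of 1 that pure counting gives. Ttr stood far above it at 250, and a single cell of hippocampus WT replicate 3 held 3151 of its 3253 UMIs before thinning. Next came Malat1 at 30.3, Cst3 at 10.3, the mitochondrial ribosomal RNA mt-Rnr2 at 7.45, Gfap at 6.67, Myoc at 6.24, Apoe at 6.21, Fabp7 at 5.92, Slc1a2 at 5.77 and Mbp at 5.08. Within libraries the median ratio was 5.36 for Gfap and 5.71 for Myoc, and 0 for Ttr. Variation of Gfap and Myoc was thus found inside libraries and not only between them.

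Gfap (chr11:102887336-102900912, minus strand) encodes the intermediate filament of fibrous astrocytes, and Myoc (chr1:162639155-162649693, plus strand) a secreted glycoprotein of surface astrocytes. Gfap averaged 3.82 UMIs per 1000, with a UMI in 63.6% of thinned cells and up to 30 in 1 cell. Myoc averaged 1.92 UMIs, with a UMI in 34.2% of thinned cells and up to 18. Across cells they went together. The correlation of their log counts was 0.851 and 0.824 in cortex WT replicates 2 and 3 and 0.762 in cortex null replicate 2. It was 0.567 in hippocampus WT replicate 3 and 0.646 in hippocampus null replicate 2. These are the 5 libraries with at least 20 such cells, 269 cells in sum, and cells of a library share its animals and its preparation. Over 731 genes the median correlation with Gfap was 0.0174, and Myoc ranked first.

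The genes that ran with Gfap within libraries, as means of the 5 correlations, were Fbxo2 at 0.543, Fxyd1 at 0.533, Igfbp5 at 0.475, Fxyd6 at 0.460, S100a6 at 0.442 and Aqp4 at 0.440. At the other end stood Slc1a3 at -0.514, Cst3 at -0.501, the protease Htra1 at -0.493, Ptprz1 at -0.465 and Mfge8 at -0.431. Fbxo2 is a ubiquitin ligase subunit, Fxyd1 and Fxyd6 regulate the sodium pump, and Mfge8 is a secreted protein of protoplasmic astrocytes. These genes were picked after their values were seen.

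A split of the thinned cells by Myoc, into 109 cells with a UMI and 210 without, gives the same axis in counts. Genes named above for their correlation with Gfap restate that choice in it, and Aqp4, Gja1, Slc1a2 and Slc1a3 are genes of the rule. Gfap averaged 8.29 UMIs per 1000 in cells with Myoc and 1.5 in those without. Fxyd1 averaged 2.23 and 0.624, Igfbp5 1.54 and 0.357, and Aqp4 2.92 and 1.52. Vim, the filament partner of Gfap, averaged 0.541 and 0.195, and the complement gene C4b 0.303 and 0.0429. All of these were higher in the cells with Myoc in 5 of 5 libraries. In the opposite direction Slc1a3 averaged 1.43 UMIs in cells with Myoc and 4.06 in those without, Cst3 15.8 and 34.6, and Slc1a2 12.6 and 17.8. Mfge8 averaged 0.220 and 1.02, Slc6a11 0.165 and 0.624, and Slc7a10 0.0275 and 0.329. Gria2 averaged 0.0550 and 0.571. Grin2c had a UMI in 1.83% of cells with Myoc and 29.0% of cells without. The transporters and Grin2c were lower in the cells with Myoc in 5 of 5 libraries. Gja1, Aldoc and Kcnj10 showed no such split, with 1.73 and 1.91, 4.33 and 5.33, and 0.239 and 0.281 UMIs. Tomato averaged 3.78 UMIs in cells with Myoc and 1.74 in those without, higher in 5 of 5 libraries.

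The share of thinned astrocytes with Myoc differed among libraries. It was 2 of 14, 26 of 47 and 18 of 34 cells in cortex WT, or 14.3%, 55.3% and 52.9%. In cortex null replicate 2 it was 9 of 28 cells, or 32.1%. In hippocampus it was 3 of 16 and 18 of 105 cells in WT replicates 1 and 3, or 18.8% and 17.1%, and 2 of 12 and 25 of 55 cells in null replicates 1 and 2, or 16.7% and 45.5%. Neither region nor genotype ordered these shares. By replicate number they were 14.3% to 18.8% in replicate 1, of the older chemistry, 32.1% to 55.3% in replicate 2, and 52.9% and 17.1% in replicate 3. The part of chemistry in them was not tested. Hippocampus WT replicate 2 had too few deep cells for a share. Without thinning, 14 of its 22 astrocytes had a Myoc UMI, or 63.6%.

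**Figure D2:**
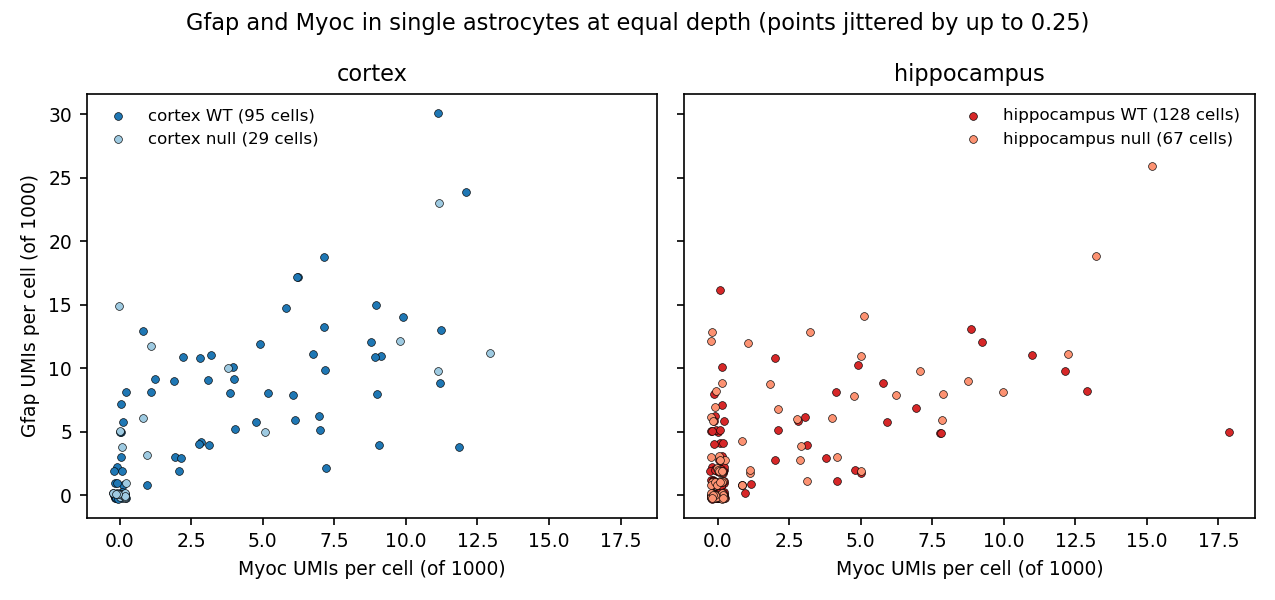
Gfap against Myoc UMIs in single astrocytes thinned to 1000 UMIs, cortex on the left and hippocampus on the right, coloured by genotype, with points spread by a small jitter. Cells with many Myoc UMIs have many of Gfap, and the correlation is 0.719 over all 319 cells.

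Genes of immature astrocytes and radial glia were present, while cell cycle genes were near 0. The 12 genes summed to 7096 CPM, led by Slc1a3 of the rule. Hopx, a gene of quiescent stem cells and of some astrocytes, ranged from 57.2 to 1240 CPM, and Vim from 82.8 to 646 CPM. Nes (nestin) had 7 UMIs and Sox11 36. Of 10 cell cycle genes, Mki67, Top2a and Ccnb1 had 0 UMIs, and the sum was 31.0 CPM against 70.3 CPM in the other cells. The most abundant was Pcna with 24 UMIs, and 2 of 358 cells had 2 or more UMIs of the list. For Mki67, 0 of 358 cells allows a share of up to 0.838% of cells with a UMI. In the list of Notch, Shh, BMP and Wnt genes, which summed to 2804 CPM, the BMP targets Id3 and Id1 led with 1586 and 297 CPM. Hes5, a Notch target, had 193 CPM, the receptor gene Notch1 167 CPM and the Shh receptor gene Ptch1 69.3 CPM, while Gli1, the usual readout of Shh, had 2 UMIs in 1 cell.

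Reactive genes were few apart from Gfap and Vim. The 22 genes summed to 4797 CPM, of which Gfap was 4032, and Lcn2 and Steap4 were at 0 UMIs. C4b ranged from 58.8 to 240 CPM and Serpina3n from 0 to 84.3 CPM. Cxcl10 had 6 UMIs in 2 cells, Gbp2 2 and Timp1 1. The 15 clock genes summed to 873 CPM, led by the output factors Dbp at 246 CPM and Tef at 140 CPM, and Arntl had 20 UMIs.

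Early response genes were highest in 3 of the 4 libraries of replicate 2. The 14 genes, which respond to activity and to cell handling, summed to 742, 5691 and 2486 CPM in cortex WT and 1908 CPM in the cortex null library. In hippocampus they summed to 1200, 5862 and 1504 CPM in WT and 972 and 5277 CPM in null. Fos, a subunit of the AP-1 factor, measured 0, 1460 and 105 CPM in cortex WT and 316 in cortex null. In hippocampus it measured 41.4, 1590 and 29.4 CPM in WT and 28.6 and 1440 in null. Junb, another AP-1 subunit, measured 0, 892 and 22.5 CPM in cortex WT, 148 in cortex null, 0, 646 and 3.27 in hippocampus WT, and 0 and 732 in hippocampus null. Of the 4 libraries of replicate 2, 3 held the highest values of both genes, and the cortex null library came next. Egr1, a zinc finger early gene, ran from 0 to 993 CPM and Jun from 28.6 to 944 CPM, with the same 3 libraries at the top. The sum in Gad-positive cells of the same libraries lay between 2265 and 4669 CPM, a smaller spread than in astrocytes. The Fos pattern was found in other classes too. Gad-positive cells had 229, 351 and 261 CPM in the same 3 libraries and at most 48.5 elsewhere, and Mog-positive cells 185, 261 and 133 CPM and at most 26.5 elsewhere. In cortex WT replicate 3, Hsp90aa1 measured 1140 CPM, with 103 of its 152 UMIs in 1 cell. Within a replicate number the sum in hippocampus was lower in null than in WT, in replicate 1 and in replicate 2. The part of handling in these values was not tested.

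**Figure D3:**
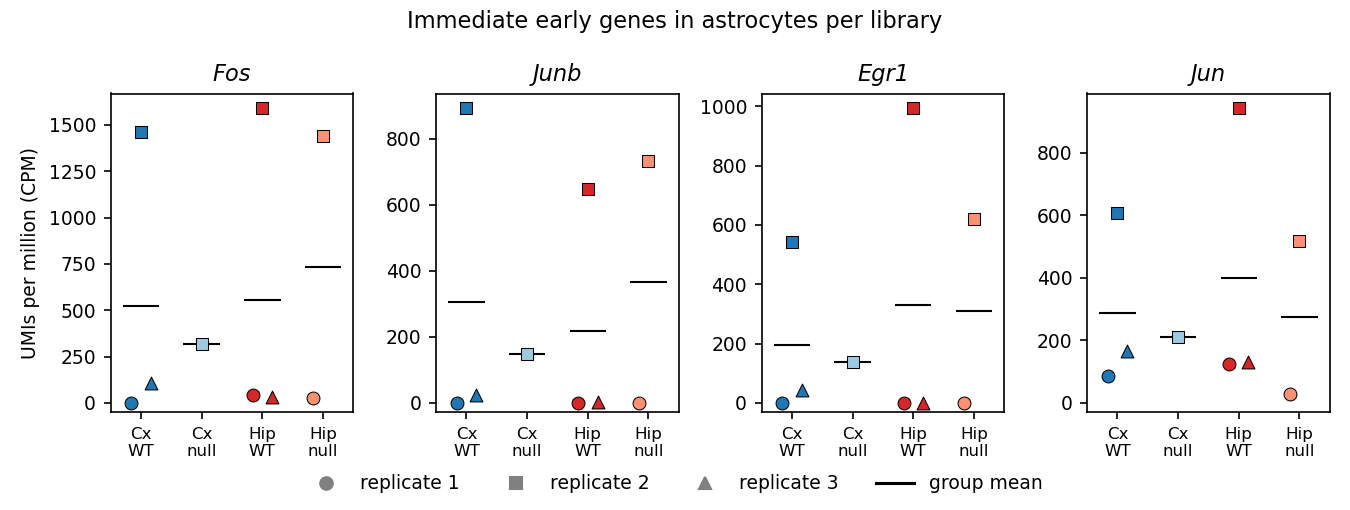
Fos, Junb, Egr1 and Jun in astrocytes (CPM) in the 9 libraries by group; each point is 1 library, its shape gives the replicate, and the line is the group mean. The highest Fos values are 1460, 1590 and 1440 CPM, all in replicate 2.

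The promoters of the early genes Fos and Dusp1 are shown because both hold the core of the cyclic AMP response element. Dusp1, a phosphatase of MAP kinases, measured 0, 292 and 29.9 CPM in cortex WT, 63.3 in cortex null, 0, 49.7 and 19.6 in hippocampus WT, and 0 and 209 in hippocampus null. The motif searched was TGACGT on either strand, the other strand reading ACGTCA, in the 250 bases before the RefSeq start of each gene (GRCm38.p6, RefSeq). It occurred in 2125 of 32851 promoters, or 6.47%, and in 3 of the 10 promoters matched from the list, those of Atf3, Fos and Dusp1. Capitals mark the motif, with overlapping matches joined. The Fos window is chr12:85473640-85473889 on the plus strand, with 1 stretch, and the Dusp1 window is chr17:26508473-26508722 on the minus strand, with 2 stretches. A match describes the letters of the window and is no evidence of binding.
Fos: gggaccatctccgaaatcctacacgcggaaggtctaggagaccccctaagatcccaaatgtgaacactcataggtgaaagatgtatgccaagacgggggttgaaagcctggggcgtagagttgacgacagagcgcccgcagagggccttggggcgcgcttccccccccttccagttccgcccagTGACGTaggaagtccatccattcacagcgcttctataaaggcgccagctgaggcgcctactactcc
Dusp1: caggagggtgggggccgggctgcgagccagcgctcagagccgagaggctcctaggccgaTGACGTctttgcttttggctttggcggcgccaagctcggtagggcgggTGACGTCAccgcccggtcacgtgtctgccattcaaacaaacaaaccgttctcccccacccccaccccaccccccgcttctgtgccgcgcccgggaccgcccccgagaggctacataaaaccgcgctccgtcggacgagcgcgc

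Transcripts of other cell types were low but not absent. Oligodendrocyte genes summed to 1015 CPM in astrocytes, with 9 of 10 detected and Mog at 0 by the rule, against 45110 CPM in the other cells. The sums were 305, 525 and 726 CPM in cortex WT, 959 in cortex null, 993, 894 and 1415 in hippocampus WT, and 987 and 1216 in hippocampus null. Hippocampal libraries were thus all above the cortex WT libraries. Precursor genes summed to 154 CPM, led by Olig1 at 108 CPM, with Pdgfra at 0 by the rule. Neuronal genes summed to 446 CPM against 21970 CPM in the other cells, led by Meg3 at 197 CPM, and Snap25 had a UMI in 7.54% of astrocytes. Their sums were 349, 222 and 1452 CPM in cortex WT, 169 in cortex null, 0, 993 and 255 in hippocampus WT, and 114 and 462 in hippocampus null. Microglial genes summed to 29.2 CPM, with C1qa, Csf1r, Cx3cr1, Tmem119 and Ctss at 0. Endothelial and mural genes summed to 114 CPM, led by Pdgfrb at 49.2 CPM, with Flt1 at 0.

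Of the ependymal and choroid plexus genes, Ttr and the ciliary genes had most of their UMIs in a few cells. Enpp2 of the same list had 291 UMIs in 86 of 358 astrocytes. The list summed to 3425 CPM, of which Ttr, the thyroxine carrier of the choroid plexus, was 2966. All of its UMIs were in hippocampus WT replicate 3, in 34 of its 115 astrocytes, and 1 cell with 3151 of them gave 25.3% of its own 12439 UMIs to this gene. In the same library 99 kept cells had at least 10 Ttr UMIs, against 5 in the other libraries. Of the ciliary genes Tmem212, Ccdc153 and Foxj1, a cell of cortex WT replicate 3 with 17136 UMIs held 112 of the 114 UMIs of its library. That cell also held all 20 Tm4sf1 UMIs. A cell of hippocampus null replicate 2 held 33 of 35 ciliary UMIs, and another 53 of the 54 mural UMIs (Rgs5, Vtn, Kcnj8) of that library. In all, 6 astrocytes had at least 10 UMIs of Ttr, or at least 2 of the ciliary genes or of the mural genes.

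Cortex and hippocampus were compared first in WT, to ask how astrocytes among the sorted cells differ by region. Counts were summed per library over its astrocytes and 3158 genes were tested with edgeR. A gene passed at an adjusted p below 0.01 and a change of 0.1 or more in natural log units. With 3 libraries against 3, 0 genes passed (0% of those tested), also at an adjusted p below 0.05. By edgeR 59 genes (1.87%) had an unadjusted p below 0.05, with 26 higher in hippocampus (0.823%) and 33 lower (1.04%), and DESeq2 passed 0 genes. The CPM of the groups did not overlap for 106 genes with higher values in hippocampus (3.36%) and 129 with lower values (4.08%). The median log2 difference over all genes was -0.04. Using all 9 libraries with genotype in the model, edgeR again passed 0 genes (0%), with 79 at an unadjusted p below 0.05 (2.5%), of which 30 were higher (0.95%) and 49 lower (1.55%). DESeq2 passed 1 gene, Sparc. The groups did not overlap for 14 genes upward (0.443%) and 19 downward (0.602%), and the median was -0.03. A block for replicate number passed 3 genes in each contrast, with Agt in both, Crym in the first and Sparc in the second. Under other alternative settings Crym passed in both contrasts, and Agt and Sparc in the second. The biological coefficient of variation was 0.321 in the first fit and 0.311 in the second.

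Agt and Sparc stood first on the hippocampal side. Agt (ENSMUSG00000031980, chr8:124556534-124569706, minus strand) encodes angiotensinogen, a secreted precursor made by astrocytes. It measured 65.4, 233 and 285 CPM in cortex WT, 517 in cortex null, 1120, 497 and 745 in hippocampus WT, and 758 and 1690 in hippocampus null. Every hippocampal WT library was above every cortical WT library, while the cortex null library lay above hippocampus WT replicate 2. The log2 difference was 1.80 (SE 0.44) in WT, with an edgeR unadjusted p = 0.000147 and adjusted p = 0.464, and 1.59 (SE 0.36) over both genotypes, with adjusted p = 0.0593. A UMI of Agt was seen in 52.8% of astrocytes against 1.55% of Gad-positive cells.

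Sparc (ENSMUSG00000018593, chr11:55394500-55423183, minus strand) encodes a matrix protein that opposes the synapse-promoting action of hevin. It measured 393, 309 and 479 CPM in cortex WT, 211 in cortex null, 1370, 795 and 804 in hippocampus WT, and 1230 and 1160 in hippocampus null. All 5 hippocampal libraries were above all 4 cortical ones. The log2 difference was 1.20 (SE 0.39; edgeR adjusted p = 1) in WT and 1.55 (SE 0.35; edgeR adjusted p = 0.0593) over both genotypes, where DESeq2 passed it. C1q-positive cells held 3985 CPM of Sparc, and the part of their RNA in these values was not tested.

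On the cortical side stood Chrdl1, Crym and Nupr1. Chrdl1 (ENSMUSG00000031283, chrX:143285674-143394262, minus strand) encodes a BMP antagonist that astrocytes of upper cortical layers secrete and that matures synapses. It measured 109, 81.6 and 59.9 CPM in cortex WT, 84.3 in cortex null, 0, 0 and 16.3 in hippocampus WT, and 0 in both hippocampus null libraries. The regions did not overlap, on 40 UMIs in 26 of 358 cells, and 5 of those UMIs were hippocampal. The log2 difference was -2.53 (SE 1.03) in WT and -3.31 (SE 0.85) over both genotypes, with edgeR adjusted p = 0.198 in the latter.

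Crym (ENSMUSG00000030905, chr7:120186380-120202111, minus strand) encodes mu-crystallin, a thyroid hormone binding protein. It measured 131, 292 and 142 CPM in cortex WT and 506 in cortex null, and 0, 0 and 9.81 in hippocampus WT, where it had 3 UMIs. In hippocampus null it measured 1030 and 124 CPM. In replicate 1 of that group 55 of 72 UMIs lay in 1 cell, which leaves 17 in the rest, and in cortex null 20 of 48 lay in 1 cell. The fitted log2 difference between regions in WT was -4.42 (SE 1.12; edgeR adjusted p = 1). With so few UMIs in hippocampus WT this fitted value depends on the prior count.

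Nupr1, a stress-responsive nuclear protein, measured 349, 81.6 and 44.9 CPM in cortex WT, 137 in cortex null, 0, 0 and 22.9 in hippocampus WT, and 28.6 and 31.1 in hippocampus null. Its log2 difference was -2.69 (SE 0.81) in WT and -2.47 (SE 0.59; edgeR adjusted p = 0.115) over both genotypes. Nrp2, a semaphorin receptor, was at 65.4 to 277 CPM in the cortical libraries and at 14.3 to 98.1 in the hippocampal ones, with -1.63 (SE 0.43; edgeR adjusted p = 0.232) over both genotypes, and these ranges overlap. Meis2, a homeobox factor, had -1.52 (SE 0.55; edgeR adjusted p = 1) in WT, at 153 to 195 CPM in cortex WT and 0 to 149 CPM in hippocampus WT, and the cortex null library, at 105 CPM, lay within the hippocampal range.

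**Figure D4:**
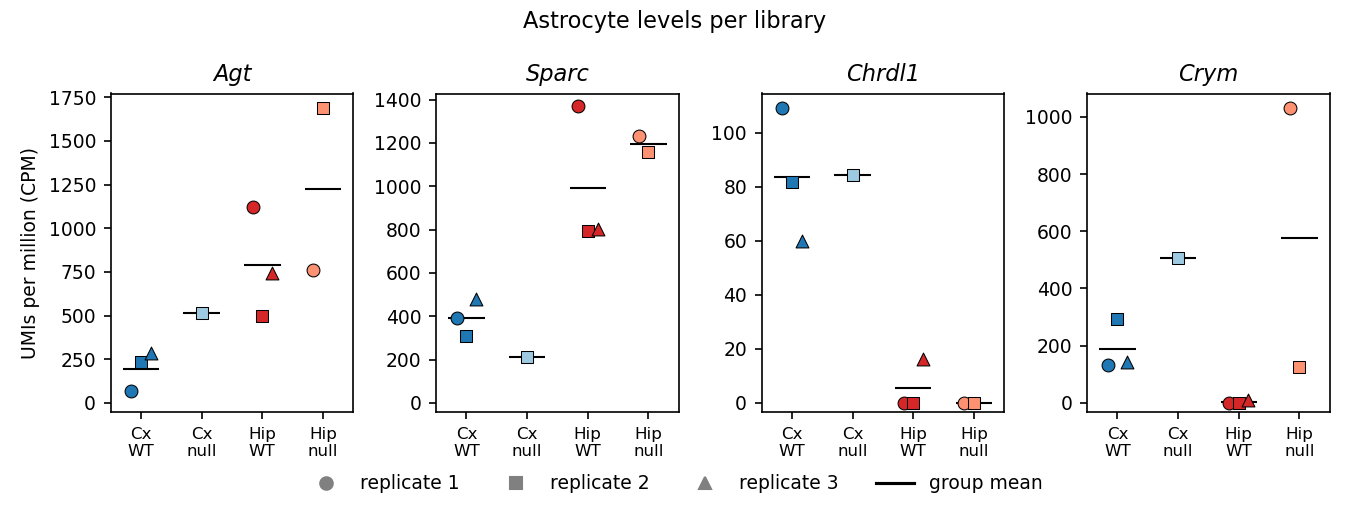
Agt, Sparc, Chrdl1 and Crym in astrocytes (CPM) in the 9 libraries by group; each point is 1 library, its shape gives the replicate, and the line is the group mean. Sparc is at 211 to 479 CPM in the 4 cortical libraries and 795 to 1370 CPM in the 5 hippocampal ones.

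Read by function, the regional contrast in WT had few genes at an unadjusted p below 0.05 in any list. None of them passed, and beside the counts of each list stand 0.823% of all genes higher and 1.04% lower at that p. Of 11 tested genes among the astrocyte subtype genes, 2 were higher and 2 lower at an unadjusted p below 0.05, Agt and Slc7a10 against Chrdl1 and Crym, with a median log2 difference of 0.70. Over both genotypes the same median was -0.19, so its sign turned with the null libraries. At the same p, Slc7a10 was higher and Glul lower among 8 tested glutamate genes, with a median of -0.25. Of 11 ion and water genes, Kcnk1, a two-pore potassium channel, was lower at -1.03 (SE 0.44) and the median was 0.03. Of 14 lipid genes, the cholesterol exporter Abca1 was higher, with a median of -0.01. Of 9 energy genes, Ldhb was lower, with a median of -0.33. Of 4 GABA genes, Slc6a11 was higher at 1.01, at 240 to 314 CPM in cortex WT and 298 to 703 in hippocampus WT, and the median was -0.04. Of the genes named in the regional comparisons, Agt, C4b, Ldhb and Nrp2 were higher in cells with Myoc in 5 of 5 libraries, and Kcnk1, Slc6a11 and Slc7a10 were lower. The share of such cells differed among libraries and was not ordered by region, and its part in the regional values was not tested.

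Of 12 secreted factors, Sparc was higher and Chrdl1 lower at an unadjusted p below 0.05, with a median of 0.03. The 10 receptor genes had none at an unadjusted p below 0.05 in WT, with a median of 0.08. Over both genotypes Ednrb was higher and Gabra2, Gabbr2 and Gria1 lower at that p, with a median of -0.11, where 0.95% of all genes were higher and 1.55% lower. Of 13 regulators, none was at an unadjusted p below 0.05 in WT, and Nfia and Nfib did not overlap, both higher in hippocampus, as did 3.36% of all genes, with a median of 0.14. The 9 immature genes had Tnc higher and a median of 0.67, and the 9 signalling genes none and a median of 0.03. Of 5 tested reactive genes, C4b and Tm4sf1 were lower, the latter with all its cortical UMIs in the cell of cortex WT replicate 3 that held the ciliary genes, with a median of -0.47. The 9 early genes had a median of -0.68 with none at an unadjusted p below 0.05, the 4 clock genes had Tef higher and a median of 0.09, and 0 cell cycle genes had enough counts to be tested. Among genes of other types Olig1 was higher in hippocampus, at 1.13, in step with the oligodendrocyte sums given above. The part of oligodendrocyte RNA in the regional differences was not tested.

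Null and WT astrocytes were compared next. The question is whether astrocytes among the sorted cells differ when their own Grin1, scarcely transcribed, and that of the sorted neurons around them is removed. In hippocampus, with 2 null libraries against 3 WT libraries, edgeR passed 0 of 3158 genes (0%), and 101 had an unadjusted p below 0.05 (3.2%), 65 higher in null (2.06%) and 36 lower (1.14%). DESeq2 passed 1 gene, Crym. The CPM did not overlap for 325 genes upward (10.3%) and 232 downward (7.35%), and the median over all genes was 0.03. Over both regions, with 3 null and 6 WT libraries, edgeR passed 0 genes (0%) and 134 had an unadjusted p below 0.05 (4.24%), 103 higher (3.26%) and 31 lower (0.982%). DESeq2 passed Crym, and 47 genes (1.49%) upward and 31 (0.982%) downward did not overlap. Among the genes described next, Crym and Ctsl passed in both contrasts under some alternative settings, Serpinf1 in hippocampus and Vtn over both regions. With a block for replicate number, 6 genes passed in hippocampus and 4 over both regions. Ctsl, higher in null, and Xist, lower, were among them in both. These contrasts share the hippocampal libraries, and the part of sex in them was not tested. Depth divided the genotypes as well, with a median of 3315.5, 6034 and 3795.5 UMIs per astrocyte in the 3 null libraries against 895.5 to 3054.5 in the 6 WT libraries. Its part in the genotype differences was not tested. Among markers of other cells, Cnp was higher in null, at 1.14 in hippocampus and 1.12 over both regions, and Olig1 was lower, at -1.33 and -1.18, each at an edgeR unadjusted p below 0.05. Of the 3 oligodendrocyte genes tested, 1 was higher and 2 lower in hippocampus, with a median of -0.20. Over both regions 2 were higher and 1 lower, with a median of 0.64. The part of RNA from other cells in the genotype differences was not tested.

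Serpinf1 (ENSMUSG00000000753, chr11:75409769-75422701, minus strand) encodes the secreted factor PEDF, which acts on vessels and neurons. It measured 284, 134 and 195 CPM in cortex WT and 137 in cortex null. In hippocampus it measured 248, 49.7 and 173 CPM in WT and 0 and 26.6 in null. The hippocampal groups did not overlap, although hippocampus WT replicate 2 rests on 1 UMI and the 6 UMIs of replicate 1 lie in 1 of 16 astrocytes. The log2 difference in hippocampus was -2.97 (SE 0.68; edgeR adjusted p = 0.166) and over both regions -1.59 (edgeR adjusted p = 0.924).

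Grin2c measured 153, 198 and 180 CPM in cortex WT and 221 in cortex null. In hippocampus it measured 290, 99.3 and 353 CPM in WT and 85.8 and 88.8 in null. Both hippocampal null libraries lay below all WT libraries there, by a small margin from WT replicate 2, and the cortex null library lay above all of cortex WT. The log2 difference in hippocampus was -1.61 (SE 0.52), with an edgeR unadjusted p = 0.00303 and adjusted p = 0.998. Cells with Myoc, in which Grin2c was rare, made up 16.7% and 45.5% of thinned astrocytes in the hippocampal null libraries and 18.8% and 17.1% in WT replicates 1 and 3. The part of this mixture in the Grin2c values was not tested. Crym in hippocampus had a fitted log2 difference of 5.92 (SE 1.11; edgeR adjusted p = 0.204), on the counts and the single cell given above.

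Vtn, which encodes vitronectin, had 0 UMIs in hippocampus WT, and 27 of its 28 UMIs were in hippocampus null replicate 2, which holds the mural cell. Etnppl, a lyase of phospholipid breakdown known in astrocytes, measured 0, 0 and 19.6 CPM in hippocampus WT and 157 and 102 in null, a fitted log2 difference of 2.96 (SE 0.97; edgeR adjusted p = 0.998). In cortex it measured 65.4, 35 and 0 CPM in WT and 42.2 in null, where the groups overlapped.

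Over both regions the smallest p values belonged to Ctsl, Tsc22d3, Tomato, Itm2b and Pnpla2, all with an edgeR adjusted p of 0.924. Ctsl, a lysosomal protease, measured 262, 140 and 329 CPM in cortex WT, 569 in cortex null, 82.8, 199 and 412 in hippocampus WT, and 758 and 621 in hippocampus null, with a log2 difference of 1.34 (SE 0.36). Tsc22d3, a target of glucocorticoids, measured 109, 192 and 112 CPM in cortex WT, 337 in cortex null, 166, 149 and 177 in hippocampus WT, and 286 and 475 in hippocampus null, with 1.29 (SE 0.36). In both genes the 3 null libraries were above all 6 WT libraries. Itm2b, a membrane protein whose gene is mutated in familial dementias, was at 1630 to 2790 CPM in WT and 3220 to 5180 in null, with 1.08 (SE 0.32). Pnpla2, a triglyceride lipase, had 1.96 (SE 0.59) on 57 UMIs, and the Tomato reporter had 1.17 (SE 0.34) with overlapping groups.

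By function, no gene of a list passed in edgeR. At an unadjusted p below 0.05 stood 2.06% of all genes higher and 1.14% lower in hippocampus, and 3.26% and 0.982% over both regions. The 14 lipid genes in hippocampus included Cpe at that p, and 3 upward and 2 downward did not overlap, with a median log2 difference of -0.10, where 10.3% and 7.35% of all genes did not overlap. Over both regions Cpe, at 0.89, and Clu, at 0.78, were higher and Fabp7, at -0.83, was lower, each at that p and without overlap, and the median was 0.06. Clu measured 4950 to 8300 CPM in WT and 9470 to 11100 in null, and Fabp7 1640 to 2850 and 959 to 1600. The 9 tested energy genes were all on the higher side over both regions, as were 1673 of all 3158 genes, with a median of 0.32 and none at an unadjusted p below 0.05. In hippocampus 7 of the 9 and 1646 of all genes were on that side, Ldhb at an unadjusted p below 0.05, with a median of 0.13. The 11 ion and water genes had a median of -0.37 in hippocampus, where Aqp4 (a gene of the rule) and Slc4a4 were lower without overlap, and -0.14 over both regions. Of the 8 glutamate genes, Slc38a3 and Slc7a11 did not overlap in hippocampus, both lower, with medians of -0.34 there and -0.08 over both regions. The 4 GABA genes had medians of -0.07 and 0.08, and none was at an unadjusted p below 0.05 in either.

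Of 9 signalling genes, Id1, Id3 and Fzd2 were higher over both regions at an unadjusted p below 0.05, where 3.26% of all genes were, with a median of 0.20. In hippocampus 6 of the 9 were lower, Ptch1 and Bmpr1b without overlap, and Id3 was higher at that p, with a median of -0.10. Id3 measured 799 to 1990 CPM in WT and 2060 to 2350 in null, so that the groups did not overlap, and its log2 difference was 0.93. Of 13 regulators, Id3 was higher and Pax6 lower at an unadjusted p below 0.05 both in hippocampus and over both regions, and neither passed, with medians of -0.28 and -0.14. Of 10 receptor genes S1pr1 was lower in hippocampus at -0.94, at that p, with a median of -0.04. Of the 12 secreted factors none was at an unadjusted p below 0.05 in either contrast, with medians of -0.23 and -0.32. At that p the 11 subtype genes had Crym and Fam107a higher in hippocampus, with a median of -0.65, and Agt and Crym higher over both regions, with a median of 0.31. None of these passed in edgeR. All 5 tested reactive genes were on the higher side in both contrasts, as were 1646 and 1673 of all genes, with a median of 0.42 in hippocampus and 0.32 over both regions, and none at an unadjusted p below 0.05. Early genes had medians of 0.94 and 0.33, although their sum in hippocampus was lower in null within each replicate number, and clock genes had medians of 0.00 in hippocampus and 0.47 over both regions. Of the genes named in the genotype comparisons, Agt, Aqp4, Id1, Id3, Ldhb and Tomato were higher in cells with Myoc in 5 of 5 libraries, and Grin2c, Pax6, S1pr1 and Slc7a11 were lower. The part of this mixture in the genotype values was not tested.

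In cortex the comparison rests on 1 null library and was not tested, nor was the interaction of region and genotype. Of 3158 genes, 723 were above all 3 WT libraries in the null library (22.9%) and 837 below (26.5%), with a median log2 ratio of -0.09. Against this background 6 of 9 signalling genes were above and 0 below, with a median of 0.47, and 5 of 10 receptor genes above and 0 below, with a median of 0.33. Of 14 lipid genes 6 were above and 1 below, and of 9 early genes 0 were above and 1 below, with a median of -0.72. Of 12 secreted factors 4 were above and 5 below, with a median of -0.07. Of 4 clock genes 3 were above and 1 below, with a median of 1.10. Of the other lists, 4 of 11 ion and water genes were above and 1 below, 4 of 11 subtype genes above and 1 below, 3 of 9 energy genes above and 1 below, and 4 of 13 regulators above and 5 below. Both tested NMDA receptor genes, Grin2c and Grin3a, were above, at 221 and 179 CPM. Among markers of other cells, 2 of 3 oligodendrocyte genes were above and 0 below, with a median of 1.05. Of 3 neuronal genes 0 were above and 2 below, with a median of -1.37, and the 1 precursor gene tested was below, at -1.01. The part of RNA from other cells in these values was not tested.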

How the data were processed

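The gene-by-cell UMI counts deposited by the authors were used as they are; the submitters' notes name Cell Ranger 2.1.1 on mm10, while the matrix header carries version 3.0.2. Libraries are the barcode suffixes of the 4 matrices, and replicate numbers were matched to them by cell numbers. Gene positions are from GENCODE vM21 (GRCm38). No doublet caller was run; the rule leaves out cells with Mog, Pdgfra or more than 1 Gad UMI. Thinning drew 1000 UMIs per cell without replacement with a fixed seed, and left out cells with fewer. Summed counts were tested with edgeR 4.0.16 (TMM, filterByExpr, quasi-likelihood, robust) and DESeq2 1.42.0 in R 4.3.3, with Benjamini-Hochberg adjustment over all genes tested, and both tools were run on simulated data first. The group-means model had 5 residual degrees of freedom and the additive model 6. Named genes are the markers and list genes, the 5 genes with the smallest p per contrast where fewer than 5 pass, the 10 largest ratios to other cells, the 10 most variable genes, and Grin1, Nkx2-1, Lhx6 and Tomato; others were chosen after their values were seen. Cells and gene lists were chosen with earlier results of these data known. Values of some genes of the lists are not reported here.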

Additional observations from a re-analysis of the deposited data

Results flagged for a closer look

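Grin2c is given here because its null and WT libraries lay on opposite sides in the 2 regions. In cortex the null library, at 221 CPM, was above all 3 WT libraries, at 153 to 198 CPM. In hippocampus both null libraries, at 85.8 and 88.8 CPM, were below all 3 WT libraries, at 99.3 to 353 CPM. Among all 3158 genes, 22.9% were above all cortex WT libraries in the null library and 7.35% were lower in hippocampus null without overlap. As log2 ratios of mean CPM plus 1, which are not the edgeR fit, the hippocampal value less the cortical one was -1.81. This difference between regions was not tested, since cortex has 1 null library with enough astrocytes. The lowest hippocampal WT value rests on 2 UMIs, and the null values on 6 and 20 UMIs. Grin2c had a UMI in 1.83% of thinned astrocytes with Myoc and 29.0% of those without, and the share with Myoc differed among libraries. It was 16.7% and 45.5% in hippocampus null and 18.8% and 17.1% in hippocampus WT replicates 1 and 3. In hippocampus WT replicate 2, which has the lowest WT value, 14 of 22 astrocytes had Myoc before thinning. The part of this mixture was not tested.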

How the results depend on the processing

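The counts of genes past the thresholds were 0 in each of the 4 tested contrasts and stayed at 0 in 57 of 85 counts under alternatives; the largest was 6. For the regional contrast in WT, 1 gene passed with no low-count filter, 3 with a replicate block, 1 with at least 20 cells per library, and 2 in replicates 1 and 3 alone. For region over both genotypes the numbers were 1 by DESeq2, 3 with the block, 1 with at least 20 cells, 1 with the stricter cell filter (1000 or more genes, 10% or less mitochondrial UMIs), 1 without cells that carry ependymal, choroid plexus or mural markers, and 2 in replicates 1 and 3 alone. For null against WT in hippocampus they were 1 by DESeq2, 2 with no filter, 6 with the block and 2 with the stricter rule. Over both regions they were 1 by DESeq2, 4 with no filter, 4 with the block, 3 with at least 20 cells and 1 with the stricter cell filter. Leaving out 1 library at a time gave 0 to 1, 0 to 2, 0 to 5 and 0 to 1 genes in the 4 contrasts. The cause was not tested. Leaving out the cells with ependymal, choroid plexus or mural markers and using replicates 1 and 3 alone were chosen after seeing the data.

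Genes that crossed the threshold included Crym in 8 settings for null against WT in hippocampus and 7 for region in WT, with log2 differences of 4.93 to 6.83 and -4.64 to -3.74. Agt crossed it with the replicate block for region in WT (1.88) and over both genotypes (1.71), and over both genotypes also without hippocampus null replicate 1 (1.74). Sparc crossed it over both genotypes by DESeq2 (1.64), with the block (1.47) and without cells that carry ependymal, choroid plexus or mural markers (1.95). Serpinf1 crossed it for null against WT in hippocampus with the stricter rule (-3.94) and without cortex WT replicate 1 (-2.96). Ctsl crossed it with the block in both genotype contrasts (2.06 over both regions). Lars2 crossed it, lower in null, in 3 settings of each genotype contrast, and Xist, lower in null, with the block in each. The other genes that crossed it in any setting were Yam1, 1500015O10Rik, Vtn, Tmem212, Enpp2, Ttr and Meg3. The 5 genes with the smallest p in each of the 4 contrasts were followed under the alternatives. Of their 404 values, 380 kept their side of the threshold, 24 moved past it and 0 turned direction. These genes were picked by p in the same libraries, so the kept direction is no support for them, and the other named genes were not followed. Libraries of the same replicate number were correlated at 0.0059 to 0.291 after group means were removed, above 0.1 in 6 of 7 pairs, and 6 of 8 libraries correlated best with their own number. Replicate 1 shares the older chemistry in all groups, and replicates 2 and 3 share the newer one. The study counts the WT cells of both regions as from 6 brains in 3 biological replicates, without assigning brains to libraries. Xist in WT astrocytes was at 0 UMIs in both regions of replicate 2 and was found in both regions of replicates 1 and 3. The paper describes dissecting both regions from the brain slices of its mice, without naming the mice behind a library. No label says that a number marks shared animals, so the pairing was left undecided. The main fits hold no block and so ignore any animals or chemistry that libraries of a number share. The block, an alternative, gave 3, 3, 6 and 4 genes in the 4 contrasts, against 0.

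The share of astrocytes reversed in 1 planned setting beside single libraries: with the stricter cell filter the regional difference in WT was -0.0843 points. Without 1 library the 3 differences ran from -0.549 to 1.05, from -0.584 to 0.0147 and from -0.242 to 1.71 points. Hippocampus WT replicate 3, cortex null replicate 1 and hippocampus null replicate 1 were the libraries whose loss reversed them, and the cause was not tested.

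The stricter cell filter gave no value for region in WT or for genotype in hippocampus, nor did at least 20 cells per library for genotype in hippocampus, or replicates 1 and 3 alone for genotype, since too few libraries were left. Depth limits the rest. A gene at 10 CPM has under 1 UMI in the summed astrocytes of hippocampus WT replicate 2, and regional or genotype differences in such genes were not detectable.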

Other observations

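Among the 358 astrocytes, 25 carried markers of other cells by the counts used in the alternatives, and the stricter rule, with at least 4 UMIs of Aqp4 plus Gja1 and 6 of Slc1a3 plus Slc1a2, left 299. The stricter cell filter left 251.

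Early response genes in C1q-positive cells of the same libraries reached 18830 CPM in hippocampus null replicate 2 and 17190 CPM in cortex null replicate 2. They summed to 8349 CPM in cortex WT replicate 2. In the other libraries with a value they lay between 1158 and 1738 CPM.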
